A study of Mus musculus with 16 samples.

Results

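The small leucine-rich proteoglycans are a family of secreted matrix proteins, and 9 of their genes were followed here in the embryonic mouse palate: Bgn, Dcn, Aspn, Fmod, Lum, Kera, Omd, Prelp and Ogn. The members were the probe sets that the platform annotation gives to one of these genes alone, which were 20 of the 45101 probe sets on the array and 9 of the 18194 genes named in that way. Ogn, Dcn, Aspn and Prelp had 2 probe sets each, Bgn had 3, Fmod had 6, and Lum, Kera and Omd had 1 each. Of the 20 probe sets, 17 reached a log2 value of 4 on at least 3 arrays, and 8 of the 9 genes had a probe set that did so and was tested. Prelp was the gene that did not.

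The series asked what the loss of the kinase Erk2 in the cranial neural crest does to the palate. All mice were of strain C57BL/6J and all carried floxed Erk2 alleles. The arrays formed 4 groups: E14.5 mutants (Erk2 fl/fl; Wnt1-Cre, n = 5), E14.5 controls (Erk2 fl/fl without Cre, n = 5), E13.5 mutants (n = 3) and E13.5 controls (n = 3). Wnt1-Cre acts in neural crest cells, so the other cells of a palate, such as its epithelium and muscle, keep their floxed alleles unrecombined. Their titles describe the controls as wild-type. The labels name palate mesenchyme as the tissue, whereas the series text speaks of primary cells of that mesenchyme. Replicates 1 and 2 of each E14.5 genotype carry the label batch 1 and replicates 3, 4 and 5 carry batch 2, and none is given for E13.5. The number of embryos behind an array is not stated, so p-values measure the spread between these samples, which may be technical.

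The arrays of a group correlated with each other at 0.993 to 0.997. The median over all 45101 probe sets was 1.63 to 1.66 at E14.5 and 3.39 to 3.44 at E13.5 on the log2 scale, so the 2 stages differ in the scale of their low values. All 15 tested genes of a list of palatal mesenchyme markers, among them Shox2, Prrx1 and Pdgfra, were detected on every array, the lowest of these values being 4.47 for Osr2. Sex-linked transcripts marked 3 of 5 E14.5 mutants and 1 of 5 E14.5 controls as female, and all 6 E13.5 arrays as female. Expression of the targeted gene was not analysed here and gives no check on the genotypes.

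Small leucine-rich proteoglycans have a core of leucine-rich repeats that bends around collagen, and most carry chondroitin, dermatan or keratan sulfate chains. In connective tissue they set the diameter and spacing of collagen fibrils and hold growth factors such as TGF-beta and BMPs in the matrix. They are grouped in classes by sequence: biglycan (Bgn), decorin (Dcn) and asporin (Aspn) form class I, fibromodulin (Fmod), lumican (Lum), keratocan (Kera), osteomodulin (Omd) and prolargin (Prelp) form class II, and osteoglycin (Ogn, also called mimecan) belongs to class III. The genes lie in clusters. In the RefSeq annotation of GRCm38.p6, Aspn, Omd and Ogn follow one another on chromosome 13 next to Ecm2, a further leucine-rich matrix gene, Dcn, Lum and Kera follow one another on chromosome 10 next to Epyc, and Prelp and Fmod are neighbours on chromosome 1 next to Optc. Bgn stands apart from these clusters on the X chromosome.

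Promoter windows of 300 bases (250 before and 50 after the annotated start) were available for 7 of the 9 genes from RefSeq (GRCm38.p6). The windows of Ogn and Bgn are shown because these genes differed between genotypes at E14.5, and those of Aspn and Omd because they lie in the same cluster as Ogn and were among the members with the largest difference between stages. All 4 lie on the + strand. Capitals mark any match to a TATA box (TATAAA), an AP-1 motif (TGANTCA), a Runx motif (TGTGGT), an Ets motif (CCGGAA), a GC box (GGGCGG) or a CArG box, on either strand.
Ogn, chr13:49607765-49608064: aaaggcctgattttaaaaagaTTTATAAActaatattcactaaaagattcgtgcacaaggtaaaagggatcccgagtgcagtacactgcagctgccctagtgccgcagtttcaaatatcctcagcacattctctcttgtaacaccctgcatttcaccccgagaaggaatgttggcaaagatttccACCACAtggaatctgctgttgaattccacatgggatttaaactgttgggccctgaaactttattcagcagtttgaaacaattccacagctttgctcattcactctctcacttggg
Bgn, chrX:73483351-73483650: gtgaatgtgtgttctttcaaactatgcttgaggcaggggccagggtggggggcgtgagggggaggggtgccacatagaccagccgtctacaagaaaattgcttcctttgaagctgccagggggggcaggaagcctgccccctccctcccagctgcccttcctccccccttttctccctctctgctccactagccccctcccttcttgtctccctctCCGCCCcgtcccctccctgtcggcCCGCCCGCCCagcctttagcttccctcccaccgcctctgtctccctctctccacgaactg
Aspn, chr13:49544193-49544492: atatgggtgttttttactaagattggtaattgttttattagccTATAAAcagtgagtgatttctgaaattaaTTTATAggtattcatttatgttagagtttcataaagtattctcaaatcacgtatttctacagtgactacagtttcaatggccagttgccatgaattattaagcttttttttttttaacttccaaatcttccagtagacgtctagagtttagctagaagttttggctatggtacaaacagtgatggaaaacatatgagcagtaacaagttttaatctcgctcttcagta
Omd, chr13:49582212-49582511: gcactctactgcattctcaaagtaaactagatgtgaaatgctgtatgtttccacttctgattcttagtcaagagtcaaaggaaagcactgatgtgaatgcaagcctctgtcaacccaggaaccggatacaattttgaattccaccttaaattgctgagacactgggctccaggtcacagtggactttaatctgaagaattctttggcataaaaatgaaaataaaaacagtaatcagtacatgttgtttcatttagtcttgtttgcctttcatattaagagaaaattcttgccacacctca

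The Ogn window held TATA box letters at 2 overlapping positions, on opposite strands, and 1 Runx match on the reverse strand. The Bgn window had a GC content of 63.7%, against 42.3% for Ogn, 37.7% for Omd and 31.0% for Aspn, and held 3 GC boxes, of which 2 overlap. Aspn held 2 TATA box matches and Omd held no match to any of the 6 motifs. Among 32851 promoter windows of the same length, 13.6% held the TATA box letters, 16.8% the Runx letters, 35.7% the GC box letters, 14.9% the Ets letters, 7.81% the AP-1 letters and 1.63% a CArG box. A match says only that these letters are present in the window.

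**Figure D1:**
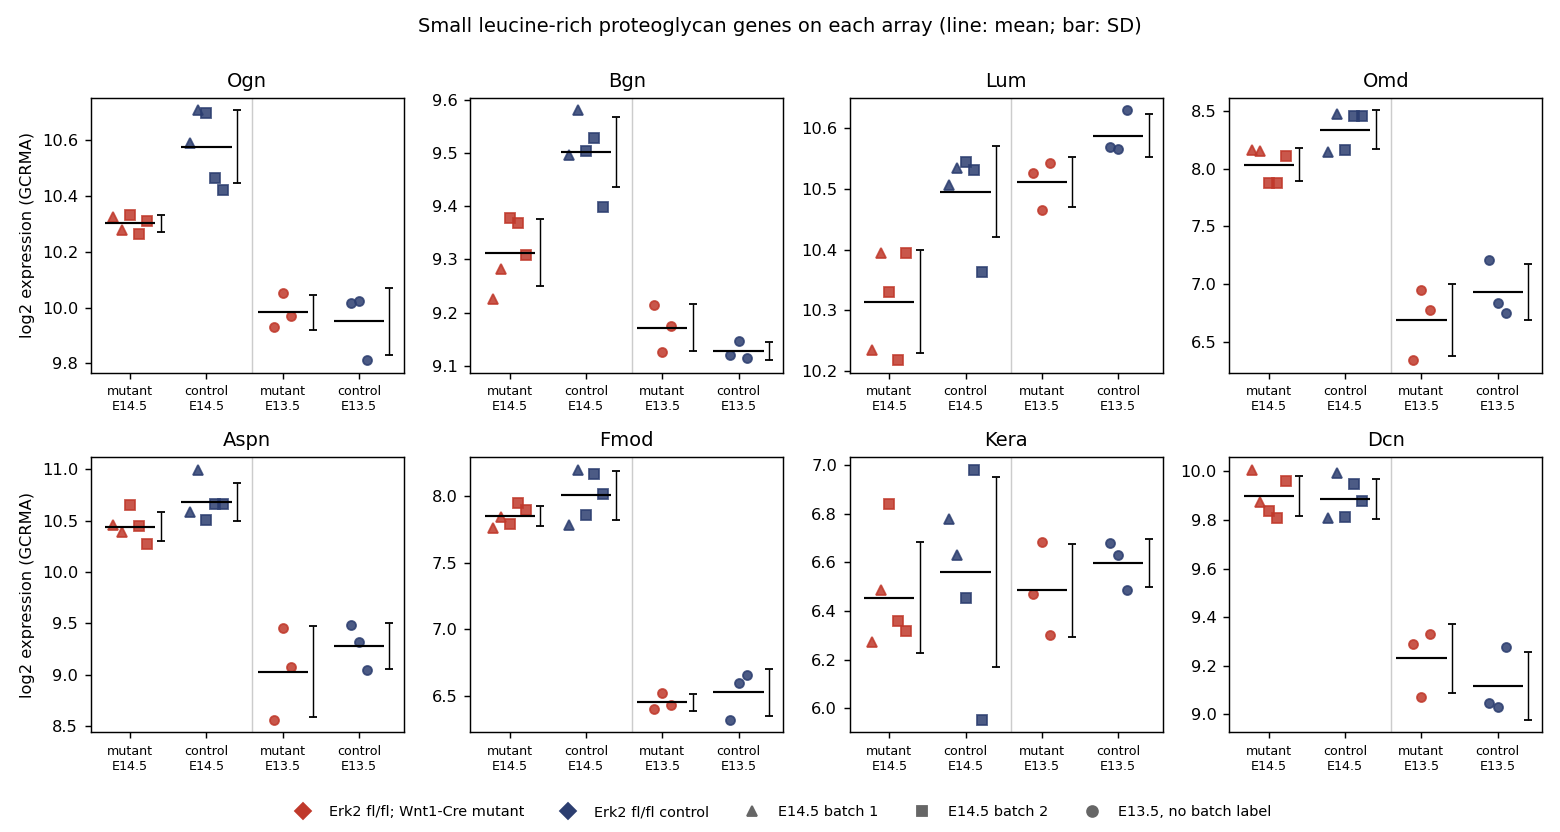
Log2 expression (vertical axis, each panel with its own scale) of the 8 tested genes on each of the 16 arrays, by stage and genotype. Points are arrays, with the marker giving the E14.5 batch, lines are group means and bars are SD. At E14.5 the mutant and control arrays of Ogn and of Bgn do not overlap, and Omd, Aspn, Fmod and Dcn are higher at E14.5 than at E13.5 in both genotypes.

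At E14.5, Ogn and Bgn were lower in mutants, each by a small margin. Ogn, a class III proteoglycan found in bone and other connective tissues, fell to 0.83 times the control level, and Bgn, a class I proteoglycan that carries chondroitin or dermatan sulfate and is abundant in developing bone, fell to 0.88 times the control level. Both passed an adjusted p under 0.05 over 11116 genes, at which 2.63% of all genes were called, 1.48% as higher and 1.15% as lower. Of the 8 tested members, 2 were called lower and none higher, and 7 had a negative difference. The median difference of the 8 members was −0.19 on the log2 scale, beside 0.01 over all genes tested, of which 44.0% were negative. The members were chosen with earlier results of these data known, so this contrast is a description only.

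Ogn had log2 levels of 10.32, 10.28, 10.33, 10.26 and 10.31 in E14.5 mutants 1 to 5, against 10.59, 10.71, 10.70, 10.47 and 10.42 in E14.5 controls 1 to 5. The 5 mutant arrays lay close together and all below the lowest control array. The log2 difference was −0.27 ± 0.06 (moderated SE, n = 5 and 5, adjusted p = 0.032, limma), with a 95% confidence interval of −0.40 to −0.15. It was −0.35 in batch 1 and −0.23 in batch 2. The other Ogn probe set, 1419662_at, was at −0.40 ± 0.10 and did not pass when all 18136 probe sets above the filter were tested (adjusted p = 0.062), a fit in which the main Ogn probe set passed (adjusted p = 0.044).

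Bgn had log2 levels of 9.23, 9.28, 9.38, 9.37 and 9.31 in E14.5 mutants, against 9.50, 9.58, 9.50, 9.53 and 9.40 in E14.5 controls. The groups did not overlap, although the highest mutant and the lowest control array were close together. The log2 difference was −0.19 ± 0.04 (adjusted p = 0.037, limma), with an interval of −0.28 to −0.10. It was −0.28 in batch 1 and −0.13 in batch 2. The 2 other Bgn probe sets were smaller in difference, at −0.13 ± 0.04 (1416405_at, adjusted p = 0.17) and −0.11 ± 0.06 (1437889_x_at, adjusted p = 0.40), and neither passed. Over all tested genes, 4.41% showed no overlap between the genotypes at E14.5 and 1.88% had every mutant array below every control array. Ogn and Bgn were the 2 members in that second class, by the probe set used for each gene. For the other Ogn probe set and the 2 other Bgn probe sets the genotypes overlapped at E14.5.

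Both calls stood near the threshold. Without E14.5 mutant 1, 2, 4 or 5 the adjusted p of Ogn was 0.079, 0.060, 0.060 or 0.062, and without E14.5 control 2 or 3 it was 0.082 or 0.070, with differences of −0.28 to −0.24. The adjusted p of Bgn was 0.107, 0.067 or 0.087 without E14.5 mutant 1, 2 or 5 and 0.065, 0.090, 0.071 or 0.061 without E14.5 control 1, 2, 3 or 4, with differences of −0.19 to −0.16. It was 0.051 without E13.5 mutant 3, 0.055 without E13.5 control 1 or 2 and 0.051 without E13.5 control 3, arrays that enter the comparison only through the shared estimate of spread. Bgn is X-linked and the sexes were uneven at E14.5. With sex as a term the difference of Bgn was −0.19 (adjusted p = 0.089) and that of Ogn −0.25 (adjusted p = 0.088). The females among the mutants (replicates 1, 2 and 3) had Bgn levels of 9.23, 9.28 and 9.38, and the female control, replicate 4, had 9.53.

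Lum, a class II keratan sulfate proteoglycan that keeps collagen fibrils thin, came next. It had 10.24, 10.39, 10.33, 10.22 and 10.39 in E14.5 mutants, against 10.51, 10.53, 10.55, 10.53 and 10.36 in E14.5 controls. Control 5 lay among the mutant arrays and the other 4 controls lay above all mutants. The log2 difference was −0.18 ± 0.05 and did not pass (adjusted p = 0.069, limma). Without control 5 it was −0.22 and passed (adjusted p = 0.032). It was −0.21 in batch 1 and −0.17 in batch 2.

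The remaining members did not pass at E14.5. Omd, a keratan sulfate proteoglycan of bone, had 8.16, 8.15, 7.88, 7.88 and 8.11 in mutants, against 8.15, 8.47, 8.16, 8.46 and 8.45 in controls. Controls 1 and 3 lay among the mutant arrays and the other controls above them, and the difference was −0.30 ± 0.12 (adjusted p = 0.22), at −0.15 in batch 1 and −0.40 in batch 2. Aspn, which binds collagen and TGF-beta, had 10.45, 10.39, 10.65, 10.45 and 10.27 in mutants, against 10.58, 10.99, 10.50, 10.66 and 10.66 in controls. Its arrays overlapped, and the difference was −0.24 ± 0.14 (adjusted p = 0.42). The second Aspn probe set was at −0.21 ± 0.10 (adjusted p = 0.31).

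Fmod, a keratan sulfate proteoglycan of tendon and cartilage, was at −0.16 ± 0.08 (adjusted p = 0.37). Its 6 probe sets all had negative differences, between −0.30 and −0.09, and none passed. Kera, the proteoglycan best known from the cornea, spread more than the others, over 6.27 to 6.84 in mutants against 5.95 to 6.98 in controls. Its difference was −0.10 ± 0.16 (adjusted p = 0.79), at −0.33 in batch 1 and 0.04 in batch 2. Dcn, which binds collagen fibrils and sequesters TGF-beta, had 10.01, 9.87, 9.84, 9.81 and 9.96 in mutants, against 9.81, 9.99, 9.81, 9.95 and 9.88 in controls. These arrays were intermixed, and the difference was 0.01 ± 0.07 (adjusted p = 0.96), with an interval of −0.13 to 0.15.

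Prelp, a proteoglycan that anchors basement membranes to collagen, lay near the lower end of the scale. Its probe set 1416321_s_at had values of 2.02 to 2.55 in E14.5 mutants and 1.72 to 2.60 in E14.5 controls, and of 2.76 to 3.10 in E13.5 mutants and 2.47 to 2.85 in E13.5 controls. Its probe set 1416322_at reached a log2 value of 4 on 1 array, E13.5 mutant 3. No difference was tested for this gene.

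**Figure D2:**
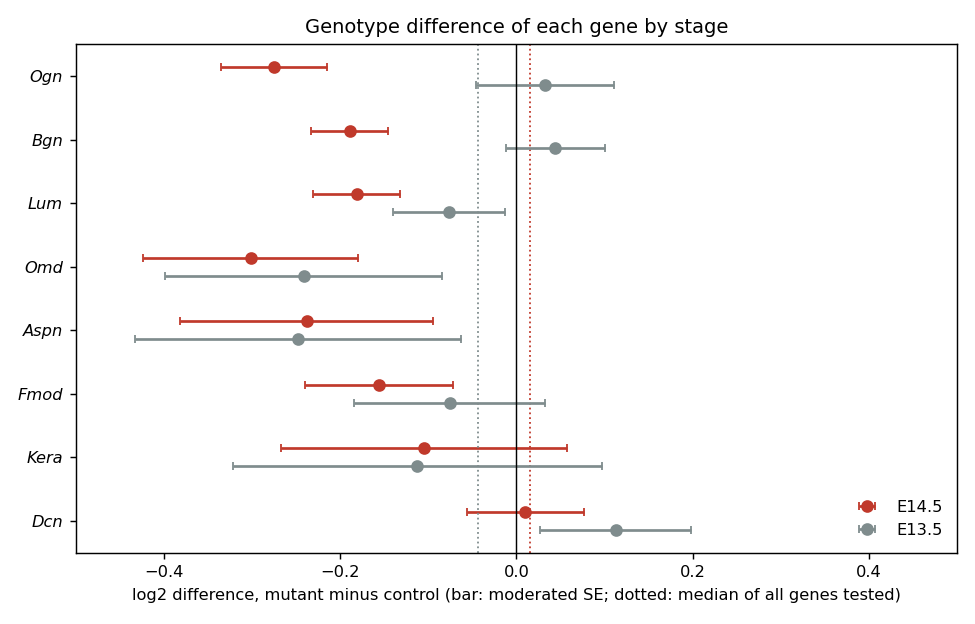
Log2 difference, mutant minus control (horizontal axis), of the 8 tested genes at E14.5 and at E13.5. Points are limma estimates, bars are moderated SE and dotted lines are the medians of all genes tested. Ogn and Bgn lie below 0 at E14.5, at −0.27 and −0.19, and near 0 at E13.5, at 0.03 and 0.04.

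At E13.5 no member passed, while 0.099% of all tested genes were called at an adjusted p under 0.05, 0.081% as lower. No member had an unadjusted p under 0.05 (limma). The share of all tested genes under that unadjusted threshold is not given here. Counts at it, here and below, therefore have no background to compare with. Ogn had 9.93, 10.05 and 9.97 in E13.5 mutants, against 10.02, 10.02 and 9.81 in E13.5 controls. The groups overlapped, and the difference was 0.03 ± 0.08 (adjusted p = 0.93). Bgn had 9.21, 9.13 and 9.17 in mutants, against 9.12, 9.15 and 9.12 in controls, which also overlapped, with a difference of 0.04 ± 0.06 (adjusted p = 0.85).

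Lum had 10.53, 10.46 and 10.54 in E13.5 mutants, against 10.57, 10.57 and 10.63 in E13.5 controls. All 3 mutants lay below all 3 controls, as they did for 13.5% of all tested genes (the genotypes did not overlap in either direction for 17.9%), and the difference was −0.08 ± 0.06 (adjusted p = 0.75). Aspn was at −0.25 ± 0.18, Omd at −0.24 ± 0.16, Kera at −0.11 ± 0.21, Fmod at −0.08 ± 0.11 and Dcn at 0.11 ± 0.09. Of the 8 members 5 were negative, with a median of −0.08, beside −0.04 over all genes tested, of which 68.5% were negative. Aspn spread widely at this stage, with 8.56, 9.45 and 9.08 in mutants against 9.48, 9.32 and 9.04 in controls.

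Whether the genotype difference itself changed between the stages was tested as a difference of differences, which calls 0.117% of all genes. No member passed. Ogn had the largest value, −0.31 ± 0.10, with an unadjusted p of 0.0074 and an adjusted p of 0.30 (limma). Bgn was at −0.23 ± 0.07, with an unadjusted p of 0.0053 and an adjusted p of 0.28. These were the 2 members with an unadjusted p under 0.05. The second Ogn probe set was at −0.59 ± 0.16 (adjusted p = 0.26), and the other Bgn probe sets were at −0.08 ± 0.07 (1416405_at) and −0.12 ± 0.09 (1437889_x_at). The lower Ogn and Bgn of E14.5 mutants are therefore not shown to be particular to that stage.

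Between the stages most of the tested members rose on the deposited scale. In mutants 6 of the 8 tested members were higher at E14.5 and 1 was lower, and in controls 6 were higher and none lower, at an adjusted p under 0.05. The stage comparison called 85.3% of all genes in mutants and 86.5% in controls, with 13.4% higher and 71.9% lower in mutants, and 11.6% higher and 74.9% lower in controls. Over all genes the median stage difference was −0.56 in mutants and −0.63 in controls. The median of the 8 members was 0.50 in mutants and 0.70 in controls. The median over all genes is not matched to the members for expression level, and the stages differ in the scale of low values. Stage cannot be told apart from array run or normalization here, since no E13.5 array shares a batch label with an E14.5 array. The genotype comparisons within a stage do not carry this shift.

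Aspn, Fmod and Omd had the largest differences. Aspn was higher at E14.5 by 1.42 ± 0.17 in mutants and 1.41 ± 0.17 in controls, which is 2.67-fold and 2.65-fold. Omd had 8.16, 8.15, 7.88, 7.88 and 8.11 in E14.5 mutants, against 6.34, 6.95 and 6.78 in E13.5 mutants, and was higher by 1.35 ± 0.14. In controls Omd was higher by 1.41 ± 0.14. The arrays of the 2 stages did not overlap in either genotype. Fmod was higher by 1.39 ± 0.10 in mutants and 1.47 ± 0.10 in controls by its main probe set.

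Dcn had 10.01, 9.87, 9.84, 9.81 and 9.96 in E14.5 mutants, against 9.29, 9.07 and 9.33 in E13.5 mutants, a rise of 0.67 ± 0.08. In controls it rose by 0.77 ± 0.08. With the mean over its probe sets, which includes the dim 1441506_at, the direction turned, to −0.16 in mutants (adjusted p = 0.025) and −0.076 in controls (adjusted p = 0.25). Ogn was higher at E14.5 by 0.32 ± 0.07 in mutants and by 0.63 ± 0.07 in controls, and Bgn by 0.14 ± 0.05 in mutants (adjusted p = 0.018) and by 0.37 ± 0.05 in controls. The gap between genotypes in these values is the difference of differences given above, which did not pass. Bgn did not pass in mutants without E13.5 mutant 2, at 0.12, with E14.5 batch 1 alone, at 0.08, or with the mean over its probe sets, at 0.03.

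Lum and Kera did not follow this pattern on the deposited scale. Lum was at −0.19 ± 0.06 in mutants (adjusted p = 0.0054) and at −0.09 ± 0.06 in controls (adjusted p = 0.15), while Kera was at −0.03 ± 0.19 in both genotypes. Their sign depends on the scaling. With every array centred on the median of its tested genes, an alternative chosen after the data were seen, all 8 members were higher at E14.5, with Lum at 0.31 in mutants and 0.49 in controls and Kera at 0.48 and 0.55. The median of the tested genes was itself lower at E14.5, so this centring raises the stage difference of every member. It therefore does not decide the direction of Lum or Kera.

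**Figure D3:**
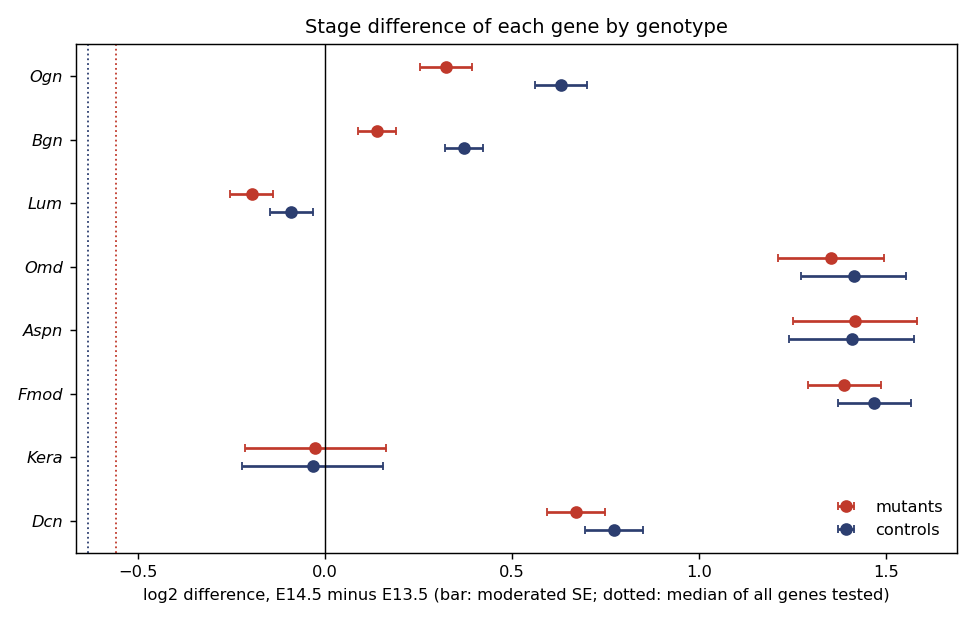
Log2 difference, E14.5 minus E13.5 (horizontal axis), of the 8 tested genes in mutants and controls. Points are limma estimates, bars are moderated SE and dotted lines are the medians of all genes tested. Omd, Aspn and Fmod lie between 1.35 and 1.47, Dcn, Ogn and Bgn between 0.14 and 0.77, and Lum and Kera below 0, all above the medians of −0.56 in mutants and −0.63 in controls.

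By the probe set used for each gene, the order of the 4 groups differed between the genes. For Ogn and Bgn the level was highest in E14.5 controls, then E14.5 mutants, with the 2 E13.5 genotypes below and overlapping. The Bgn probe set 1437889_x_at did not share this order, with means of 8.36 in E13.5 mutants, 8.33 in E14.5 controls and 8.22 in E14.5 mutants. For Omd, Aspn, Fmod and Dcn both E14.5 groups lay above both E13.5 groups, and the genotypes within a stage did not differ by the test. For Lum the highest mean was that of E13.5 controls, 10.59 ± 0.04 (SD, n = 3), followed by E13.5 mutants at 10.51 ± 0.04, E14.5 controls at 10.50 ± 0.08 and E14.5 mutants at 10.31 ± 0.08 (SD, n = 5). Kera had group means of 6.45 to 6.60 that did not separate from one another.

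Probe sets of the same gene did not always agree on the stage. The 6 Fmod probe sets split: 1456084_x_at and 1438966_x_at were higher at E14.5, by 1.39 and 2.25 in mutants and 1.47 and 2.38 in controls, while 1415939_at, 1437685_x_at and 1437718_x_at were lower, with differences of −1.17 to −0.81 in mutants and −1.18 to −0.62 in controls. The sixth, 1437324_x_at, was at −0.28 and −0.12 and did not pass in either genotype. The probe sets that were lower had E14.5 group means of 3.79 to 4.10, near the value of 4 used as the filter. The suffix _x_at marks probe sets whose probes can match more than one transcript. The stage difference of Fmod thus holds for 2 of its probe sets, and with the mean over probe sets it was 0.06 in mutants and 0.20 in controls and did not pass. The Bgn probe set 1437889_x_at was at −0.14 in mutants and −0.03 in controls and did not pass in either genotype. The third, 1416405_at, was at 0.10 in mutants (adjusted p = 0.082) and 0.18 in controls (adjusted p = 0.0032), so in mutants 1 of the 3 Bgn probe sets passed. Both Aspn probe sets were higher in both genotypes, the second by 0.83 and 0.96, and so were both of Ogn. The second Dcn probe set, 1441506_at, stayed between 0.75 and 2.05 on all arrays and was not tested.

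**Figure D4:**
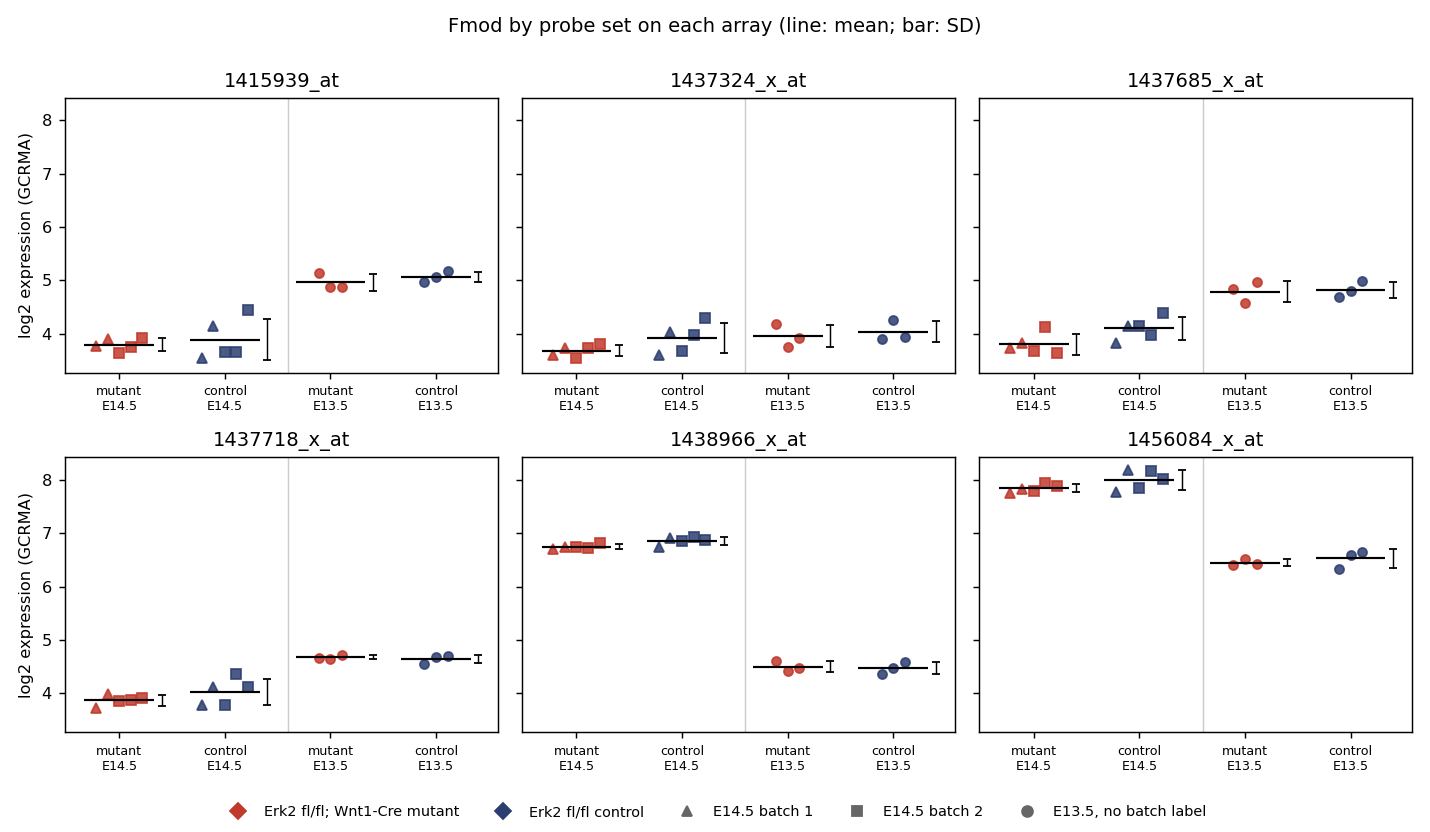
Log2 expression (vertical axis, shared) of the 6 Fmod probe sets on each of the 16 arrays, by stage and genotype, with means and SD. The probe sets 1438966_x_at and 1456084_x_at are higher at E14.5, while 1415939_at, 1437685_x_at and 1437718_x_at are lower, and within a stage the genotypes lie close together in all 6.

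Of 10 further genes of the family listed, 8 were named alone by a probe set and 3 passed the filter. All 3 were lower at E14.5 than at E13.5 on the deposited scale. Podn was at −2.74 in mutants and −2.46 in controls, and Chadl at −2.27 in both. Epyc was at −1.81 in mutants and −1.26 in controls. The mean log2 level of the 3 genes was 2.12 to 2.55 in E14.5 mutants and 1.87 to 2.17 in E14.5 controls. At E13.5 it was 4.44 to 4.79 in mutants and 3.87 to 4.41 in controls. At such levels these falls cannot be told apart from the shift of low values between the stages. Epyc, the class III neighbour of Kera and a cartilage proteoglycan, was at 0.74 ± 0.28 at E14.5 (adjusted p = 0.18) and 1.30 ± 0.36 at E13.5 (adjusted p = 0.29), mutant minus control. Podn was at −0.15 ± 0.07 and Chadl at 0.04 ± 0.08 at E14.5. None of the 3 passed between genotypes.

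The enzymes that build the sugar chains gave no call between genotypes at either stage. At E14.5 none of 5 tested genes of the linker region passed, none of 13 for chondroitin and dermatan sulfate and none of 5 for keratan sulfate (limma), while 1, 4 and 0 of them had an unadjusted p under 0.05. Of the chondroitin and dermatan genes 9 were negative, with a median of −0.09. Csgalnact1, which starts chondroitin chains, was at −0.25 ± 0.07 (adjusted p = 0.076), Chsy1, which extends them, at −0.15 ± 0.04 (adjusted p = 0.080), Chst14, which sulfates dermatan, at −0.22 ± 0.07 (adjusted p = 0.13), and Pxylp1, a phosphatase of the linker, at −0.21 ± 0.06 (adjusted p = 0.094).

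The collagens that these proteoglycans bind did not pass either. At E14.5, 8 of 11 tested collagen genes were negative with a median of −0.03, and at E13.5 all 11 were negative with a median of −0.11. An unadjusted p under 0.05 was reached by 4 of the 11 at E14.5 and by 0 at E13.5 (limma). Col1a1 was at −0.34 ± 0.13 (adjusted p = 0.20) and Col11a1 at −0.32 ± 0.12 (adjusted p = 0.16) at E14.5. Between the stages Col1a1 was higher by 1.70 in mutants and 1.68 in controls. That is of the same order as Aspn, Fmod and Omd, but the collagen list was split. In mutants 6 of the 11 were higher and 4 lower, and in controls 5 were higher and 4 lower. The stage comparison called 85.3% of all genes in mutants and 86.5% in controls. The list medians were 0.23 in mutants and 0.17 in controls. Col1a2, Col3a1, Col6a1 and Col6a2 were lower in both genotypes. No growth factor of 9 tested passed between genotypes, with Ccn4 at −0.26 ± 0.07 (adjusted p = 0.067), and no receptor of 9 tested passed, with Kdr at −0.30 ± 0.11 (adjusted p = 0.16). Unadjusted p under 0.05 was reached at E14.5 by 2 of the growth factors and 1 of the receptors (limma). As above, no share of all genes at that threshold stands beside these counts.

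Among 9 tested proteases and enhancers that process these proteins and their collagens, 1 passed. Pcolce2, an enhancer of procollagen cleavage, fell by 0.91 ± 0.17 on the log2 scale in E14.5 mutants (adjusted p = 0.014, limma). Its relative Pcolce was at −0.24 ± 0.06 (adjusted p = 0.068). Of 10 tendon and ligament genes, Mkx, a homeobox factor of tendon, fell by 0.30 ± 0.07 (adjusted p = 0.045). Of the 32 alternatives run, 2 ended the call of Pcolce2 and 21 that of Mkx.

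Several markers of other cells also differed between the genotypes at E14.5. The osteoblast list had 5 of 9 tested genes lower, namely Dmp1, Phex, Sp7, Alpl and Pth1r, with a median of −0.52, and its summed linear level was 3783 to 5212 in E14.5 mutants, against 4995 to 6393 in E14.5 controls. The oral epithelium list had 10 of 19 tested genes higher, all 19 positive, with a median of 0.39, and its summed level was 5872 to 7567 in mutants, against 5050 to 5406 in controls, without overlap. The skeletal muscle list had no call among 20 genes (6 with an unadjusted p under 0.05, limma), all 20 positive, with a median of 0.52, and summed to 2275 to 6000 in mutants, against 1356 to 3891 in controls. The palatal mesenchyme list summed to 4461 to 5078 in mutants, against 4887 to 5313 in controls. Of its 15 tested genes 8 were negative and 7 positive, with a median of −0.03. Only Foxf1 passed, at −0.34 ± 0.07. The summed level of the 8 proteoglycan genes was 5940 to 6333 in mutants, against 6592 to 7726 in controls. At E13.5 neither Ogn nor Bgn passed, and no gene of the osteoblast, epithelium or muscle lists passed. The osteoblast list then summed to 556 to 813 in mutants, against 815 to 1076 in controls, with a median difference of −0.44. The epithelium list summed to 3996 to 4538 against 4171 to 4795, with a median of −0.05. The muscle list summed to 4026 to 5164 against 2721 to 3334, with a median of 0.63. The osteoblast and muscle medians thus had the same sign at both stages.

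Fewer cells of a type and less RNA per cell cannot be told apart in such samples, and the part of these marker shifts in the Ogn and Bgn differences was not tested. The muscle list was lowest in E14.5 controls 1 and 3. Without those 2 arrays Ogn was at −0.24 (adjusted p = 0.094) and Bgn at −0.19 (adjusted p = 0.098). Of the other lists at E14.5, Hapln1 and Sox6 of 10 cartilage genes were lower, and Tagln of 8 pericyte and smooth muscle genes was higher. The cartilage genes went both ways, 5 negative and 5 positive, with a median of −0.02. The pericyte and smooth muscle genes were 3 negative and 5 positive, with a median of 0.04. None of 9 endothelial, 8 neuronal or 6 macrophage genes passed (3, 1 and 2 with an unadjusted p under 0.05, limma). Of 32 alternatives, 19 ended the call of Hapln1, 7 that of Sox6, 3 that of Tagln, 13 that of Foxf1, 16 that of Pth1r and 9 that of Sp7.

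The deviations of each gene from the mean of its group and batch describe which genes rise and fall together over the 16 arrays apart from the design. For Ogn the 2 genes with the highest Pearson r were Clk4 (0.87) and Psma5 (0.87), for Bgn Rps6kc1 (0.91) and Carhsp1 (0.90), for Lum Dek (0.94) and Gins3 (0.93), and for Aspn Psmb4 (0.96) and Mgat2 (0.95). For Omd they were Clec11a (0.87) and Mpc1 (0.86), for Fmod Minar2 (0.88) and Rragd (0.88), for Dcn Armc9 (0.91) and Hoxc9 (0.90), and for Kera AA388235 (0.91) and Tapt1 (0.91). These are the highest values among all other tested genes, over few arrays, and are given as a description; members were not candidates.

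Among the 28 pairs of members, the neighbours Aspn and Omd had the highest correlation of these deviations, with Pearson r = 0.76 (permutation p = 0.030, adjusted over the pairs 0.75) and Spearman rho = 0.77 (permutation p = 0.020, adjusted 0.56) over 16 arrays. Without the 2 arrays farthest from the median of Aspn, r was 0.56. Within E13.5 it was 0.94, within E14.5 batch 1 0.99 and within E14.5 batch 2 −0.14, so it did not hold in every batch. Batch 1 has 2 arrays per genotype, whose deviations mirror each other, so its value carries little information. Ogn and Bgn had r = 0.23 (permutation p = 0.62, adjusted 0.87) and rho = 0.079 (permutation p = 0.82, adjusted 0.95). No pair passed after adjustment.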

How the data were processed

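Palate RNA was measured on 16 Affymetrix arrays with 1 colour. The deposited values are log2 expression values. Per the submitters' processing notes, the authors used GCRMA. The sources used here give neither the version nor whether the stages were normalized together. The number of arrays limits the precision.

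The platform annotation gave 1 gene to 34958 probe sets, several to 932 and none to 9211. For each gene the probe set of highest mean level was taken, and 11116 genes with a log2 value of at least 4 on at least 3 arrays entered limma 3.58.1 under R 4.3.3 (lmFit and eBayes, group and E14.5 batch as terms, all 16 arrays). Calls used Benjamini-Hochberg adjusted p under 0.05 over these genes. Up to 4 genes per list with the smallest p and the 2 genes most like each member are named. The members and lists were chosen with earlier results of these data known. Marker levels were summed on the linear scale. Pairs of members were tested with 100000 permutations of the arrays within group and batch. Promoters are from RefSeq, and figures were drawn with matplotlib 3.10.9 in Python 3.11.15. The fit was tested on simulated data. Alternatives changed the filter, the probe set rule, the scaling, the variance model, the batch, sex and replicate terms and the arrays included.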

Additional observations from a re-analysis of the deposited data

Results flagged for a closer look

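The 20 member probe sets were examined in both genotypes at E14.5, the groups of 3 arrays at E13.5 being too small. Of these 40 groups, 4 held an array that stood apart from the rest of its group, past Dixon's 95% critical value, which by its definition chance passes in about 1 in 20 groups. Lum (1423607_at) was at 10.36 on E14.5 control 5, below the other 4 controls at 10.51 to 10.55, and the Bgn probe set 1437889_x_at was at 8.14 on the same array, below a group median of 8.35. Fmod (1438966_x_at) was at 6.82 on E14.5 mutant 5, above a group median of 6.74, and Prelp (1416321_s_at) was at 2.55 on E14.5 mutant 4, above a group median of 2.11.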

How the results depend on the processing

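No member was called at E13.5 or for the difference of differences under any alternative run, and the stage counts stayed within 1.5 times the main count (4 to 8 members called). At E14.5 the main count of 2 members between genotypes was 1 without the filter, with the mean over probe sets, with further quantile normalization and with every probe set as its own feature. It was 0 with only the arrays compared, in E14.5 batch 1 alone, in batch 2 alone, with sex as a term and without E14.5 controls 1 and 3, and 3 with trend and robust variance. Leaving out each array in turn gave 0 to 3. The labels do not say whether a replicate number pairs a mutant with a control. Deviations of arrays with the same number correlated at −0.27 to 0.17, over too few pairs to decide. With a replicate block the count was 0, Ogn at −0.27 (adjusted p = 0.066) and Bgn at −0.19 (adjusted p = 0.11). Over all alternatives Ogn ranged from −0.35 to −0.23 (adjusted p 0.011 to 0.25) and Bgn from −0.28 to −0.13 (adjusted p 0.017 to 0.33), so the direction held and the call did not.

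Some values changed sign. Mutant minus control, Ogn at E13.5 was −0.00449 centred on array medians and −0.037 to 0.069 without single arrays. Dcn at E14.5 was −0.021 with the mean over probe sets, −0.010 in batch 2, −0.00406 with sex, −0.047 without controls 1 and 3, −0.00598 centred on the tested genes and −0.023 to 0.034 without single arrays. Kera at E14.5 was 0.043 in batch 2 and −0.26 to 0.017 without single arrays, and Chadl −0.038 without controls 1 and 3 and −0.00740 to 0.083 without single arrays. Between stages, the called rise of Dcn reversed with the mean over probe sets, to −0.16 in mutants (adjusted p = 0.025) and −0.076 in controls (adjusted p = 0.25). Lum was 1.59 and 1.66 centred on array medians and 0.31 and 0.49 centred on the tested genes. Kera in mutants was 1.76 and 0.48 under those centrings, 0.48 with quantile normalization, 0.0063 with array weights, 0.020 in batch 2 and −0.13 to 0.074 without single arrays. Kera in controls was 1.72, 0.55, 0.52, 0.010 with weights, 0.11 in batch 1, 0.060 with sex and −0.14 to 0.11 without single arrays. Centring on the tested genes was chosen after seeing the data. The cause of these shifts was not tested.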
